A study of Mus musculus with 6 samples.

Results

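The EGF family ligands amphiregulin (Areg), epiregulin (Ereg), heparin-binding EGF (Hbegf), transforming growth factor alpha (Tgfa), betacellulin (Btc) and epigen (Epgn) were followed together with the receptors Egfr, Erbb2 and Erbb3 in mouse thymoma cells. These 9 genes, 6 ligands and 3 receptors, were chosen by symbol among 25001 loci with an expression value, of which 22601 carried a gene symbol, and each symbol had 1 row. RNA from the thymoma line 427 was sequenced in 6 libraries, with 1 library per condition and therefore no replicate. The 427 cells carried the empty pSUPER vector and received DMSO or 1 µM PMA, a phorbol ester that activates protein kinase C and induces ectodomain shedding, for 2 h after 2 h without serum. Cells labelled SP2bKD, for which the labels give an siRNA against the intramembrane protease SPPL2b and the study's methods a single-cell clone with a stable shRNA, received the same treatments. Cells labelled SP2bKD were also transfected with a GFP vector alone or with GFP plus Flag-tagged EICD, the intracellular domain of the membrane protease epithin/PRSS14 (St14), and GFP-positive cells were sorted. In its RNA sequencing the study reported which genes differ between cells with GFP plus EICD and cells with GFP alone. It used PMA and the knockdown to raise or lower EICD in assays of the protein, of migration and of invasion.

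EGF family ligands are made as membrane-anchored precursors and are released by metalloproteases such as ADAM17. A released ligand joins receptors of the ErbB family into dimers, and the kinase of the dimer starts signalling through the RAS and MAPK cascade and through PI3 kinase. Areg, Tgfa and Epgn bind EGFR, while Ereg, Hbegf and Btc also bind ErbB4. ErbB2 has no known ligand and acts as a partner of the other receptors, and ErbB3 is a neuregulin receptor with a weak kinase. In epithelia the family is known for driving growth, wound closure and migration.

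The FPKM of the gene targeted by the knockdown did not follow the labels. Sppl2b, on chromosome 10 from 80853006 to 80868705 (GRCm38), had 9.90 FPKM (fragments scaled to transcript length and library depth) with DMSO and 6.86 FPKM with PMA in 427 cells. The libraries labelled SP2bKD had 13.4 and 9.37 FPKM under the same treatments, and the sorted cells 11.4 FPKM with GFP alone and 13.2 FPKM with EICD added. With DMSO as with PMA, Sppl2b was thus higher in the library labelled SP2bKD than in 427 cells. The study itself chose its knockdown clones by real-time PCR of SPPL2b mRNA, and reported less EICD in them after PMA. Those measurements are not part of the values used here. The Sppl2b locus shares 2204 bases with Lsm7 on the other strand, and the part of that overlap in these values was not tested. St14 was 69.6 FPKM in sorted cells with GFP alone, 614.5 FPKM in those that also received EICD, and between 81.8 and 105 FPKM in the other 4. The transfected EICD is made from St14 coding sequence. Fragments of the construct and of the cells' own St14 thus cannot be told apart in the value of 614.5 FPKM. Of the epithelial markers, 5 of the 6 analysed reached 1 FPKM, among them Epcam, Cdh1 and Krt14, with a summed level of 2470 to 4313 FPKM. Of 5 thymic epithelial markers, Foxn1 and Ly75 passed 1 FPKM, and Aire was listed at 0. None of 7 T cell, 5 fibroblast and 3 endothelial markers reached 1 FPKM, with Cd3d, Cd3e and Cd4 listed at 0, while of 4 myeloid markers Cd68 and Csf1r did, at up to 7.35 FPKM, and Adgre1 was listed at 0. Depth was estimated as 25300000 to 29000000 fragments per library. Intervals given below cover the counting error of a gene's estimated fragments at that depth. They do not cover the error of the depth itself or the spread between cultures.

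The ligand genes lie in 3 places. On GRCm38, Epgn (chromosome 5, 91027464 to 91035215), Ereg (91074622 to 91093646) and Areg (91139599 to 91148432) follow each other on the plus strand, and Btc (91356997 to 91403073) lies on the minus strand of the same chromosome. Tgfa is on chromosome 6 from 86195223 to 86275719, plus strand, and Hbegf is on another chromosome. The receptors are spread over chromosome 11 (Egfr, 16751931 to 16918158, and Erbb2, 98412470 to 98437716, both plus strand) and chromosome 10 (Erbb3, 128567523 to 128590554, minus strand). No member shared bases with another locus except Erbb2, which shared 9 bases with Mien1 on the other strand.

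RefSeq promoters (GRCm38.p6) were found for 6 of the 9 genes, namely Epgn, Areg, Btc, Tgfa, Egfr and Erbb2. Those of Areg, Tgfa and Epgn are printed because Areg had the widest range of levels among the ligands, Tgfa the highest level with DMSO and Epgn the lowest value in any library. Capitals mark exact matches, on either strand, to the letters TGACGTCA (a cAMP response element), GGGCGG (an Sp1 site) and, for the box that the TATA-binding protein recognises, TATAAA. The Areg sequence is chr5:91139349-91139598, the Tgfa sequence chr6:86194972-86195221 and the Epgn sequence chr5:91027267-91027463, all on the plus strand and each ending next to the start of its RefSeq gene or, for Epgn, of its locus.
Areg: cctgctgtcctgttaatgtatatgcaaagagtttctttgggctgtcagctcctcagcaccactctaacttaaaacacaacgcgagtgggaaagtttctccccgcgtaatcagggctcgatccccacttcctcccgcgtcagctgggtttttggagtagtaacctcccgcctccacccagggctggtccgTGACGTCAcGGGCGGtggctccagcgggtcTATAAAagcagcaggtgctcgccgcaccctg
Tgfa: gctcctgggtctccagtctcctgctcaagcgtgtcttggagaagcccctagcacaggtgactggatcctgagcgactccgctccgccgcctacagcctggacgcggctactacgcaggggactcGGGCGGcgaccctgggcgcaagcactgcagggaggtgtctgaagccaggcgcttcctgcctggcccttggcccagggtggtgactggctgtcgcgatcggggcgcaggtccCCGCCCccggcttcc
Epgn: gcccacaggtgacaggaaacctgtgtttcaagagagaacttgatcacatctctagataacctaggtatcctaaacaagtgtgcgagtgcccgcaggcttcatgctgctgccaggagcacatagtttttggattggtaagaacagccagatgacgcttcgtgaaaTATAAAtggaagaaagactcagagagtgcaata

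In the Areg promoter the cAMP response element stood 61 to 54 bases before the start, the Sp1 site 52 to 47 bases and the TATA box 31 to 26 bases before it. The Tgfa promoter held Sp1 matches at 126 to 121 and at 15 to 10 bases before the RefSeq start and no TATAAA, and its GC content was 69.2% against 57.2% for Areg and a median of 52.4% over the 32851 promoters of the same table. In Epgn the TATA box lay 33 to 28 bases before the start of the locus. Among the 6 promoters, TGACGTCA was in 1, GGGCGG in 3 and TATAAA in 2, and they occur in 1.55%, 32.7% and 12.4% of all promoters in the table. The AP-1 letters TGAGTCA, the EGR letters GCGTGGGCG, the CArG box and the NF-kappaB site were in none of the 6, and in 4.46%, 0.536%, 1.47% and 5.001% of all promoters. A match is a description of letters in this window, and binding was not measured.

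In 427 cells with DMSO the receptors were the more abundant side of these 9 genes. Their FPKM summed to 76.4 and that of the 6 ligands to 39.6, or 0.518 ligand FPKM per receptor FPKM. Erbb2 was highest at 42.6 FPKM, followed by Tgfa at 23.4, Erbb3 at 20.6, Egfr at 13.2, Hbegf at 9.64, Areg at 3.41 and Btc at 2.17. Epgn and Ereg, at 0.488 and 0.469 FPKM, lay under 1 FPKM and did not differ beyond counting error. Tgfa, a ligand common in epithelial cells, thus made up 59.1% of the ligand FPKM and Areg 8.63%. The plot of FPKM by gene and library shows that Tgfa and the receptors moved over a smaller range. Areg, Ereg and Epgn moved over a wide one, with Epgn low throughout, from 0.0533 to 1.33 FPKM.

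**Figure D1:**
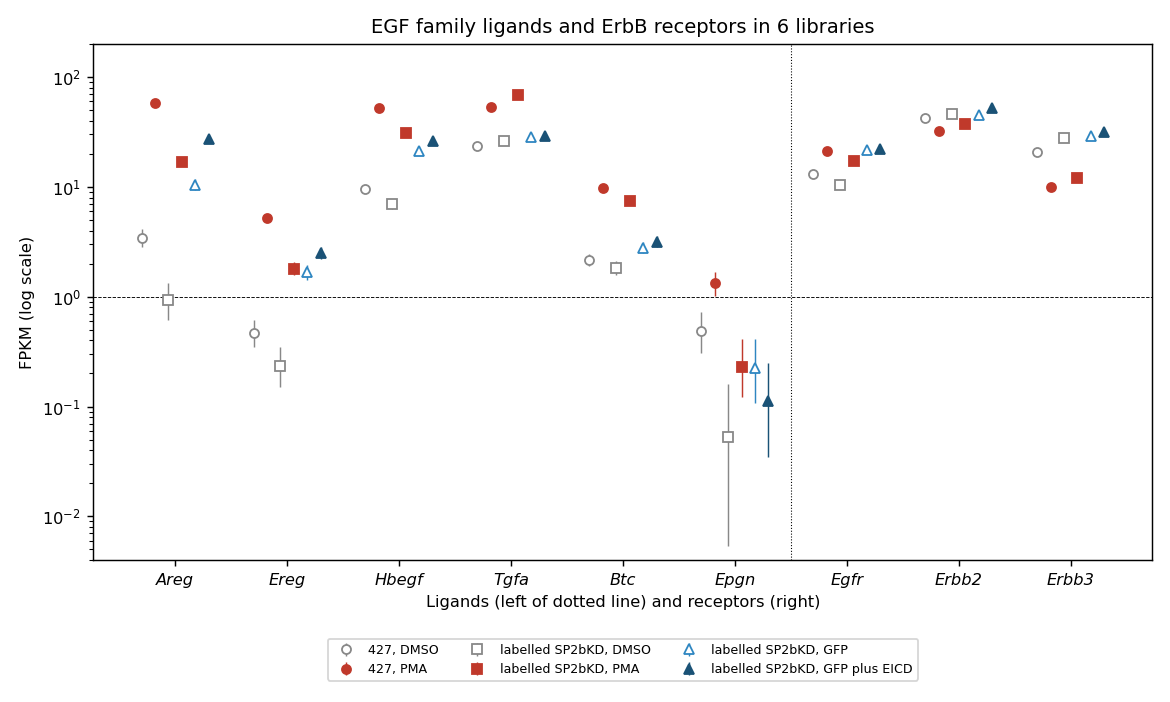
FPKM on a log scale of the 6 ligands and, right of the dotted line, the 3 receptors, with 1 point per library and bars for the 95% counting interval; the dashed line is at 1 FPKM. Areg runs from 0.929 to 57.7 FPKM, while Erbb2 runs from 32.2 to 52.3 FPKM.

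With PMA in 427 cells all 6 ligands were more than 2-fold higher and 1 receptor, Erbb3, was more than 2-fold lower. Areg was 16.9-fold higher, Ereg 11.0-fold, Hbegf 5.39-fold, Btc 4.48-fold, Epgn 2.69-fold and Tgfa 2.28-fold, each as a ratio of FPKM with 0.01 added to both libraries. A gene was counted when it passed 2-fold and reached 1 FPKM in either library, and by that measure 3.91% of the 10643 loci with a symbol were higher and 4.67% were lower. The median log2 ratio of the 9 genes was 1.43, against -0.12 over all loci, whose middle 95% ran from -1.26 to 1.34. Among loci expressed in both libraries the median log2 ratio was -0.11 here and -0.14 in the libraries labelled SP2bKD, so ratios with PMA are relative to a slight downward shift. In RNA of whole cultures, a level that is lower in fewer cells and one that is lower in each cell cannot be told apart.

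Areg, a ligand of EGFR that is released from the cell surface by shedding, had 3.41 FPKM with DMSO and 57.7 FPKM with PMA in 427 cells, and 0.929 and 16.9 FPKM in the libraries labelled SP2bKD. Both libraries with PMA lay above both with DMSO. The log2 ratio was 4.08 in 427 cells (counting interval of the fold 13.9 to 20.6), which placed Areg at rank 25 of 10643 loci from the highest. In the libraries labelled SP2bKD the log2 ratio was 4.17 (18.0-fold, 12.6 to 27.6), at rank 18 of 10624. That fold starts from about 29.1 fragments in the DMSO library, and with 1 FPKM added to both libraries the log2 ratios were 3.73 and 3.22.

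Ereg, which starts at -65.0 kb from the start of Areg and encodes a ligand of EGFR and ErbB4, had 0.469 FPKM with DMSO and 5.24 FPKM with PMA in 427 cells, and 0.233 and 1.80 FPKM in the libraries labelled SP2bKD. It was under 1 FPKM with DMSO in both lines and above it with PMA. The log2 ratios were 3.45 in 427 cells and 2.90 (7.46-fold) in the libraries labelled SP2bKD. With 1 FPKM added they were 2.09 and 1.19, both still past 2-fold.

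Hbegf, a ligand that binds heparan sulfate and also serves as the diphtheria toxin receptor in humans, had 9.64 FPKM with DMSO and 52.0 FPKM with PMA in 427 cells. In the libraries labelled SP2bKD it had 6.93 and 31.2 FPKM, a 4.49-fold difference. Btc, a ligand of EGFR and ErbB4, had 2.17 and 9.74 FPKM in 427 cells and 1.83 and 7.40 FPKM, a 4.02-fold difference, in the libraries labelled SP2bKD. For Btc the counting intervals of the fold with PMA overlapped between the lines, 3.90 to 5.20 in 427 cells and 3.45 to 4.76 in the libraries labelled SP2bKD. Those of Hbegf, 4.99 to 5.84 and 4.09 to 4.95, did not. Nor did those of Tgfa, 2.18 to 2.38 and 2.47 to 2.68, where the larger fold was in the libraries labelled SP2bKD. Those of Erbb3, 0.457 to 0.514 and 0.409 to 0.454, also lay apart, and those of the remaining members overlapped.

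Tgfa was the most abundant ligand with DMSO and had the smallest fold of the 6 in 427 cells. It had 23.4 FPKM with DMSO and 53.4 FPKM with PMA in 427 cells, and 26.4 and 68.0 FPKM, a 2.57-fold difference, in the libraries labelled SP2bKD. Epgn, the least abundant ligand with PMA, had 0.488 and 1.33 FPKM in 427 cells and 0.0533 and 0.228 FPKM in the libraries labelled SP2bKD. The Epgn values labelled SP2bKD stayed under 1 FPKM and were not counted, and the DMSO value rests on about 2.42 fragments. Their ratio without anything added was 4.28, with a counting interval of 1.19 to 49.1. With 1 FPKM added, the log2 ratio of Epgn in 427 cells was 0.65, under 2-fold.

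The receptors did not follow the ligands past 2-fold. Egfr, the receptor of all 6 ligands, had 13.2 FPKM with DMSO and 21.1 with PMA in 427 cells, and 10.5 and 17.2 FPKM in the libraries labelled SP2bKD. These were 1.60-fold and 1.64-fold differences, under the 2-fold mark. Erbb2 had 42.6 and 32.2 FPKM in 427 cells and 46.4 and 37.7 FPKM in the libraries labelled SP2bKD, with log2 ratios of -0.40 and -0.30. Erbb3, the receptor that pairs with ErbB2 on neuregulin binding, had 20.6 and 10.0 FPKM in 427 cells and 27.8 and 11.998 FPKM in the libraries labelled SP2bKD. It was thus 2.06-fold lower with PMA in 427 cells (log2 ratio -1.04) and 2.32-fold lower (log2 ratio -1.21) in the libraries labelled SP2bKD. In 427 cells this lay at the mark, since the log2 ratio was -0.98 with 1 FPKM added and -0.94 with the median of all loci set to 0.

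In the libraries labelled SP2bKD, 8 of the 9 genes passed the filter, of which 5 ligands were higher, Erbb3 was lower and Egfr and Erbb2 lay between. Over all 10624 loci 3.51% were higher and 5.69% lower. The median log2 ratio of all 9 genes, Epgn included, was 1.91 against -0.15 over all loci, whose middle 95% ran from -1.36 to 1.22. The plot of log2 ratios shows all 6 ligands above 0 with PMA, and with them Egfr, at 0.68 and 0.72, while Erbb2 and Erbb3 lie below 0.

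**Figure D2:**
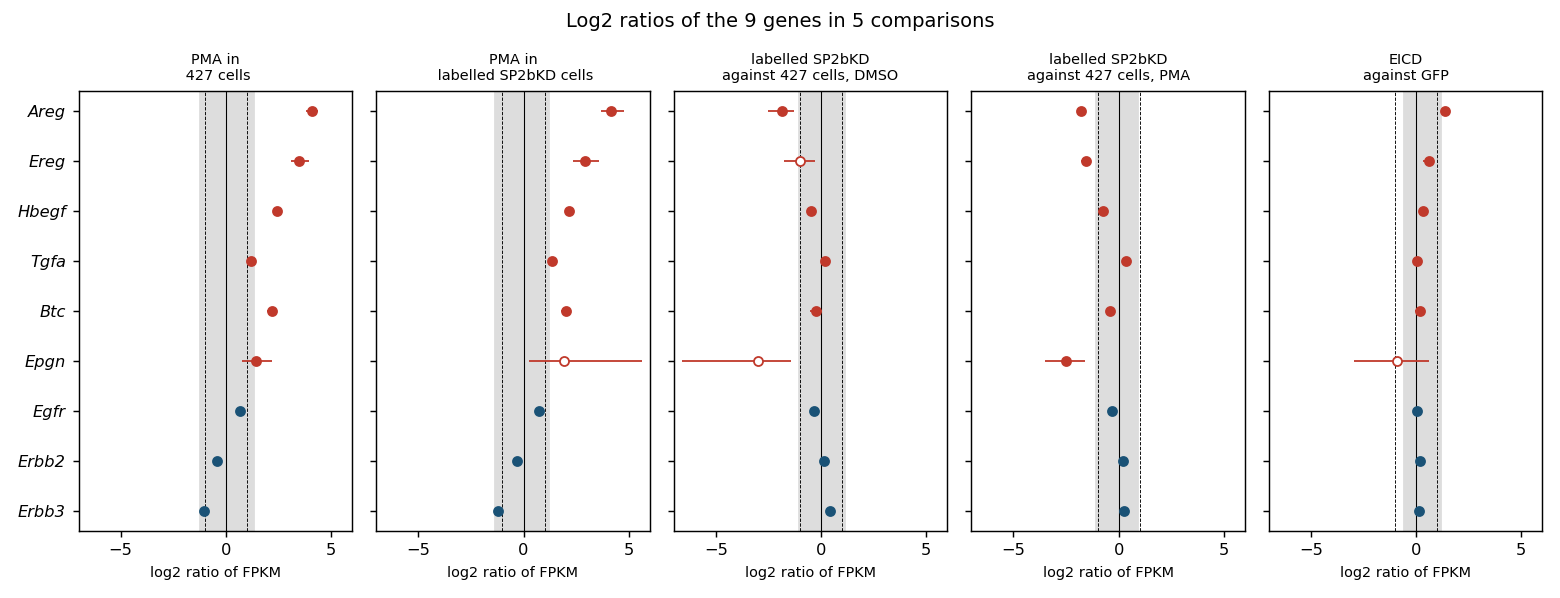
Log2 ratio of FPKM of the 9 genes in each comparison, with bars for the 95% counting interval, shaded bands for the middle 95% of all loci with a symbol that passed the filter, and open points for genes under the filter. With PMA, Areg lies at 4.08 and 4.17 and Erbb3 at -1.04 and -1.21; with EICD, Areg at 1.37 lies above 1.

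The PMA log2 ratio in 427 cells minus that in the libraries labelled SP2bKD was within the middle 95% of 10845 loci, -0.70 to 0.91, for all 9 genes. It was above 0 for 4 of them, and ran from -0.48 for Epgn to 0.55 for Ereg, and was -0.099 for Areg. With 1 FPKM added, the difference for Areg was 0.52 and that for Epgn 0.43, so its sign depends on the amount added for those ligands. With 1 library per condition the difference was not tested.

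The levels themselves differed between the lines more than the folds did. With DMSO, Areg was 3.65-fold lower in the library labelled SP2bKD than in 427 cells (0.929 against 3.41 FPKM, log2 ratio -1.87, counting interval -2.53 to -1.29). It was the 1 gene past 2-fold among the 7 that passed the filter, while 2.76% of 10706 loci were lower and 3.11% higher. With PMA, Areg (16.9 against 57.7 FPKM, 3.41-fold), Ereg (1.80 against 5.24 FPKM, 2.90-fold) and Epgn (0.228 against 1.33 FPKM, 5.63-fold) were lower, 3 of 9 genes, and 2.75% of 10518 loci were lower and 2.19% higher. These 3 are the neighbours on chromosome 5. With 1 FPKM added, the log2 ratio of Epgn with PMA was -0.92 against -2.49, and those of Areg and Ereg stayed past 2-fold at -1.71 and -1.15. The cells labelled SP2bKD are described as 1 clone and Sppl2b FPKM was not lower in their libraries, so the knockdown and the choice of clone cannot be told apart in these directions.

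The other ligands and the receptors stayed within 2-fold between the lines. The log2 ratio of the library labelled SP2bKD over 427 cells was -0.48 with DMSO and -0.74 with PMA for Hbegf, and -0.24 and -0.40 for Btc. Tgfa lay on the other side, at 0.17 and 0.35. Egfr was at -0.33 and -0.29, Erbb2 at 0.12 and 0.23, and Erbb3 at 0.43 and 0.26. The median of the 9 genes was -0.33 with DMSO, against 0.046 over all loci with a middle 95% from -1.06 to 1.13, and -0.40 with PMA, against 0.024.

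With EICD, Areg was the 1 member past 2-fold. It had 10.5 FPKM with GFP alone and 27.1 FPKM with EICD, a 2.58-fold difference with a counting interval of 2.27 to 2.94, at rank 169 of 10682 loci. Of the 8 genes that passed the filter 1 was higher and 0 were lower, and 3.58% of all loci were higher and 0.506% lower. Ereg had 1.67 and 2.51 FPKM, a 1.51-fold difference, and Hbegf 21.2 and 26.3 FPKM, a 1.24-fold difference. Both lay above 1 beyond counting error, with intervals of 1.24 to 1.83 and 1.16 to 1.33, and under the 2-fold mark. Tgfa had 28.5 and 29.3 FPKM and Btc 2.79 and 3.18 FPKM, and the counting intervals of their folds, 0.978 to 1.08 and 0.969 to 1.34, held 1. Epgn had 0.226 and 0.111 FPKM, under the filter, from about 10.1 and 5.21 fragments. Of the receptors, Erbb2 (45.4 and 52.3 FPKM, 1.15-fold, interval 1.11 to 1.19) and Erbb3 (28.8 and 31.8 FPKM, 1.11-fold, interval 1.06 to 1.15) also lay above 1 beyond counting error. The interval for Egfr (21.4 and 22.2 FPKM, 1.04-fold) was 0.998 to 1.07 and held 1. The median log2 ratio of the 9 genes was 0.19, against 0.067 over all loci with a middle 95% from -0.59 to 1.18. For this comparison 0.01 was added to the EICD library alone, and loci under 0.01 FPKM with GFP alone were left out.

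The GFP library itself differed from the DMSO library labelled SP2bKD, from which it is separated by transfection and sorting at once. Whether the sorted cells were deprived of serum is not given in the sources used here. Areg had 0.929 FPKM in the DMSO library and 10.5 FPKM in the GFP library, Ereg 0.233 and 1.67 FPKM, Hbegf 6.93 and 21.2 FPKM and Egfr 10.5 and 21.4 FPKM. Tgfa (26.4 and 28.5 FPKM), Erbb2 (46.4 and 45.4 FPKM) and Erbb3 (27.8 and 28.8 FPKM) were close in both. For Areg the GFP library, without EICD, thus lay between the DMSO and the PMA library labelled SP2bKD. What each of these handling steps adds to the values cannot be told apart.

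Summed over the family, PMA moved the ligands from the smaller to the larger side. The ligand sum was 39.6 FPKM with DMSO and 179 FPKM with PMA in 427 cells, 36.4 and 126 FPKM in the libraries labelled SP2bKD, 64.9 FPKM with GFP alone and 88.5 FPKM with EICD. The receptor sum ran from 63.4 to 106 FPKM and was lower with PMA in both lines. The ratio of ligand to receptor FPKM was 0.518 and 2.83 in 427 cells, 0.430 and 1.88 in the libraries labelled SP2bKD, and 0.679 and 0.832 in the GFP and GFP plus EICD libraries. For these 6 ligands it passed 1 with PMA in both lines, and in no library without PMA. The neuregulin Nrg1, a ligand of ErbB3, was not in the ligand sum. It had 36.6 FPKM in the GFP library and 28.8 FPKM in the GFP plus EICD library. The receptor sums there were 95.6 and 106 FPKM, so which side is larger in those libraries depends on the ligands chosen.

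**Figure D3:**
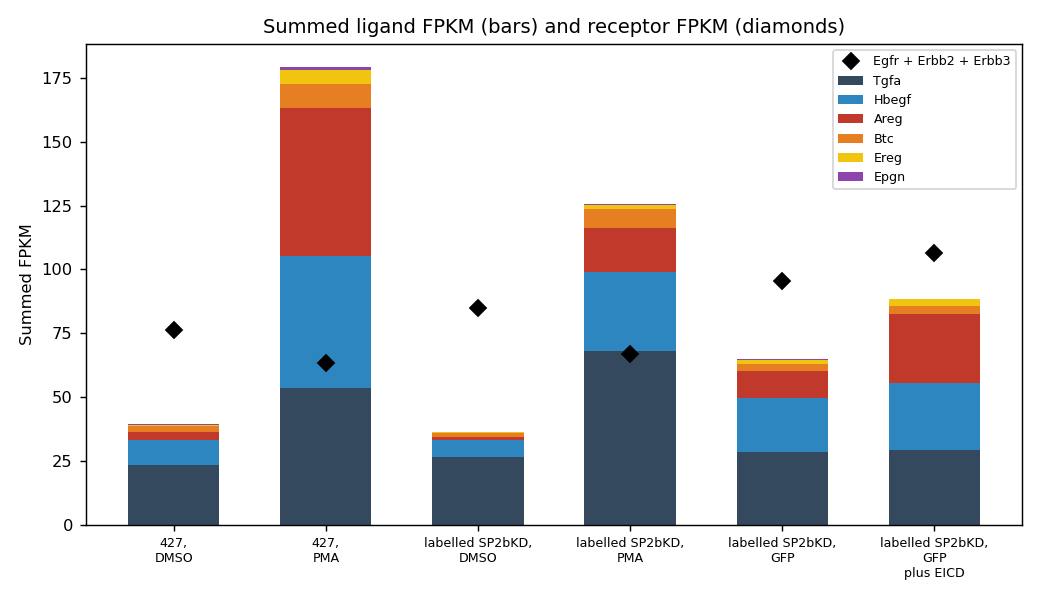
Stacked bars of the FPKM of the 6 ligands in each of the 6 libraries, with each ligand as a segment, and diamonds for the summed FPKM of the 3 receptors. The axis starts at 0, and Nrg1 is not in the bars. The ligand bar passes the receptor diamond with PMA, 179 against 63.4 FPKM in 427 cells and 126 against 66.9 FPKM in the library labelled SP2bKD, and stays under it in the other 4 libraries.

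The make-up of the ligand sum changed too. Areg was 8.63% of the ligand FPKM with DMSO and 32.2% with PMA in 427 cells, 2.55% and 13.5% in the libraries labelled SP2bKD, and 16.2% and 30.6% in the GFP and GFP plus EICD libraries. Tgfa went the other way, with 59.1% and 29.7% in 427 cells, 72.6% and 54.2% in the libraries labelled SP2bKD, and 44.0% and 33.1% in the sorted cells. Areg was the highest of the 9 genes in 427 cells with PMA, with a counting interval of 55.2 to 60.3 FPKM, while those of Tgfa (52.1 to 54.6) and Hbegf (50.5 to 53.6) overlapped. Tgfa was the highest in the library labelled SP2bKD with PMA, and Erbb2 in the other 4 libraries. In the GFP plus EICD library Areg (25.3 to 28.9 FPKM) and Hbegf (25.2 to 27.5 FPKM) did not differ beyond counting error. Among the receptors Erbb2 was the highest in each library, and Egfr went from 17.2% to 33.3% of the receptor sum with PMA in 427 cells and from 12.4% to 25.7% in the libraries labelled SP2bKD.

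The run of ligand genes on chromosome 5 was looked at as a stretch, a choice made after the values had been seen. Mthfd2l, a folate enzyme gene just before Epgn, had 21.5 FPKM with DMSO and 22.9 with PMA in 427 cells, a log2 ratio of 0.09. In the libraries labelled SP2bKD it had 15.0 and 20.4 FPKM, a log2 ratio of 0.44. Past it, the log2 ratio with PMA in 427 cells was 1.43 for Epgn, 3.45 for Ereg and 4.08 for Areg, and 2.16 for Btc, whose locus begins 217 kb after the start of Areg. In the libraries labelled SP2bKD it was 1.91 for Epgn, under the filter, 2.90 for Ereg, 4.17 for Areg and 2.01 for Btc. With EICD, Areg was at 1.37, Ereg at 0.59, Btc at 0.19, Mthfd2l at -0.05 and Epgn, under the filter, at -0.90. Areg was thus the gene of the stretch with the largest ratio with PMA in both lines and with EICD.

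**Figure D4:**
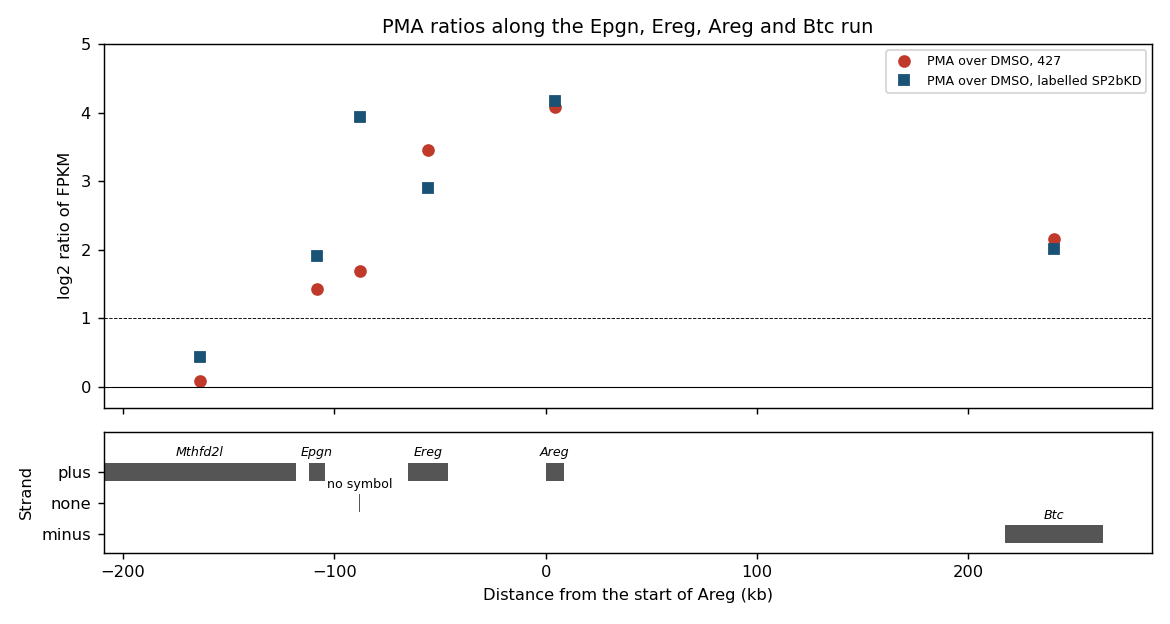
Log2 ratio of FPKM, PMA over DMSO, in 427 cells (circles) and in the libraries labelled SP2bKD (squares) for the loci around Areg, drawn at their distance in kb from the start of Areg, with the loci as bars by strand in the lower panel. With PMA in 427 cells the ratio is 0.09 at Mthfd2l, 1.43 at Epgn, 3.45 at Ereg, 4.08 at Areg and 2.16 at Btc. In the libraries labelled SP2bKD it is 0.44, 1.91, 2.90, 4.17 and 2.01 at the same genes.

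The remaining ligands and receptor of the family were mostly low. Nrg1, a neuregulin that binds ErbB3 and ErbB4, had 15.4 FPKM with DMSO and 43.5 FPKM with PMA in 427 cells, and 6.21 and 26.6 FPKM in the libraries labelled SP2bKD. It was 2.83-fold and 4.28-fold higher with PMA, and with DMSO it was lower in the library labelled SP2bKD, at a log2 ratio of -1.31. With EICD it had 28.8 FPKM against 36.6 FPKM in the GFP library, a log2 ratio of -0.35. Nrg2 was 2.17-fold lower with PMA in the libraries labelled SP2bKD (1.96 and 0.898 FPKM). Egf reached at most 0.216 FPKM, Nrg4 lay between 0.572 and 2.02 FPKM, Nrg3 was listed at 0 in each library and Erbb4, the receptor that Ereg, Hbegf and Btc could also use, was listed at 0 in 5 libraries and at 0.0324 FPKM in the GFP plus EICD library.

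Genes that release the ligands or relay the signal were counted by the same 2-fold measure, which over all loci called 3.91% higher and 4.67% lower with PMA in 427 cells, and 3.51% and 5.69% in the libraries labelled SP2bKD. At those shares a list of this length holds few calls, so the counts that follow are descriptions. Of 10 sheddases and iRhoms, which release the ligands or carry ADAM17 to the surface, 0 of 9 that passed the filter were past 2-fold with PMA in 427 cells, and 1 of 8, Rhbdf1, in the libraries labelled SP2bKD (2.099-fold, and 1.86-fold in 427 cells). Adam17, the main sheddase of Areg and Tgfa, lay between 33.5 and 37.5 FPKM in all 6 libraries. Timp3, an inhibitor of ADAM17, was lower in the libraries labelled SP2bKD than in 427 cells, with 0.523 against 1.42 FPKM with DMSO and 0.576 against 1.30 FPKM with PMA. Between the lines 2.76% of all loci were lower and 3.11% higher with DMSO, and 2.75% and 2.19% with PMA. Of 21 adaptors and kinases analysed, Gab1 alone was past 2-fold in any comparison of PMA or of the lines, 2.07-fold lower with PMA in the libraries labelled SP2bKD.

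Of 15 inhibitors and turnover genes of the receptors, Errfi1, whose product binds and blocks the EGFR kinase, was higher with PMA in both lines. It had 17.9 and 59.9 FPKM in 427 cells and 16.9 and 45.5 FPKM in the libraries labelled SP2bKD, 3.34-fold and 2.69-fold. Socs5, a suppressor of EGFR signalling, was 2.22-fold higher with PMA in the libraries labelled SP2bKD and 1.81-fold in 427 cells. Over all loci 3.58% were higher and 0.506% lower with EICD, shares at which these lists would hold few calls. With EICD no gene of these 4 lists that passed the filter was past 2-fold. The highest were Lrig3 at 1.77-fold, Errfi1 at 1.75-fold and Lrig2 at 1.67-fold, while Egf, under the filter, had 0.216 against 0.0827 FPKM. The plot of PMA ratios in both lines places the 9 genes, except Epgn, among these lists.

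**Figure D5:**
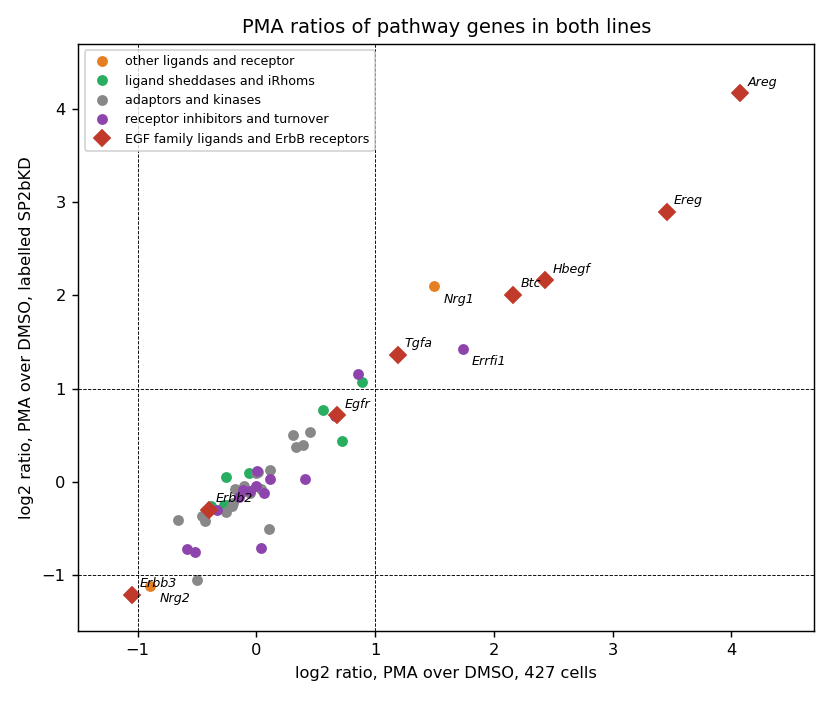
Log2 ratio with PMA in 427 cells (horizontal) against that in the libraries labelled SP2bKD (vertical) for pathway genes at 1 FPKM or more in at least 1 library of each line, with 1 point per gene and dashed lines at 2-fold. Areg (4.08, 4.17), Ereg (3.45, 2.90), Hbegf (2.43, 2.17) and Btc (2.16, 2.01) have a higher ratio in 427 cells than each gene of the 4 lists, and Epgn is not drawn because it was under the filter in the libraries labelled SP2bKD.

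For the 6 genes with 10 FPKM or more in at least 1 library, the genes with the most similar pattern were found by the distance between log2 levels over the 6 libraries, each centred on its own mean, among 8097 loci. Nearest to Areg were the cytokine Il1a (distance 0.523), the chemokine Cxcl5 (0.659), the cytokine Lif (0.775), Ier3 (1.04) and the AP-1 subunit Fosl1 (1.11), and Hbegf was at rank 14. Il1a ran from 13.9 FPKM in the DMSO library labelled SP2bKD to 406 FPKM in 427 cells with PMA, the same libraries in which Areg was lowest and highest. Nearest to Hbegf were Kcnn4 (0.247), Epha2 (0.281), Hivep2 (0.444), Phlda1 (0.505) and Cd80 (0.539). Nearest to Tgfa were Ocln (0.206), Rsbn1, Rnf24, Itgb6 and Bcr (0.353), to Egfr Acvr1 (0.113), Fam83g, Foxn2, Arl4c and Slc25a22 (0.2499), to Erbb2 Zmym2 (0.0390), Smarcc2, Nmral1, Lnpep and Kifc1 (0.117), and to Erbb3 Pik3r3 (0.266), Phf21a, PISD, C2cd5 and Meis2 (0.340). The libraries share a cell line and, for 4 of them, the label SP2bKD, and the distances are a description.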

How the data were processed

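The authors sequenced paired-end RNA libraries on an Illumina HiSeq 2500 and deposited an FPKM for each locus in each library, on GRCm38. The submitters' processing notes name STAR 2.4.0b, TopHat2 2.1.1, Cufflinks 2.1.1 and Cuffdiff 2.1.1. FPKM depends on the assembled gene models, and most members had newly assembled isoforms. From the deposited FPKM, log2 ratios were taken in Python 3.11.15 (pandas 2.3.3, NumPy 2.4.6, matplotlib 3.10.9, SciPy 1.17.1), and the script was tested on simulated data. With 1 library per condition no p-value was computed. Fragments were estimated from the smallest steps of FPKM in 881 genes with a transcript over 2500 bases and from the longest annotated transcript. Counting intervals (95%), exact Poisson for levels and exact binomial (Clopper-Pearson) for ratios, are therefore approximate. All 9 members were named, other genes of the pathway lists if past 2-fold or if they were the remaining ligands and receptor, and the 5 most similar genes. The members and lists were chosen with earlier results of these data known. The alternatives were other added amounts, other minimum FPKM and other scalings. A planned description of the ligand proteins was not run, since no protein sequences were used here.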

Additional observations from a re-analysis of the deposited data

How the results depend on the processing

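Of 342 alternative values of single genes, 317 stayed within the counting interval, 25 moved beyond it and none changed the direction of a ratio past 2-fold. The widest move was 1.71 on the log2 scale, for Ereg with PMA in the libraries labelled SP2bKD with 1 FPKM added. In 427 cells with PMA, the count of lower members was 0 in place of 1 with 1 FPKM added and 0 with the median ratio set to 0, since Erbb3 lay at the mark. With a minimum of 10 FPKM the count of higher members with PMA was 3 in place of 6 in 427 cells and 3 in place of 5 in the libraries labelled SP2bKD, the count lower in the library labelled SP2bKD was 0 in place of 1 with DMSO and 1 in place of 3 with PMA, and the members with a higher PMA ratio in 427 cells were 2 in place of 4, because fewer genes passed. That last count was 5 with 0.1 FPKM added and 6 of 9 with 1 FPKM added, so whether most members lay above 0 depends on the amount added, and with 1 FPKM added 5 in place of 6 members were higher with PMA in 427 cells. With no minimum, 2 in place of 1 were lower with DMSO, Epgn being added. With the median ratio set to 0, the EICD log2 ratios of Tgfa and Egfr were -0.02 and -0.0093 in place of 0.04 and 0.05. No pairing by replicate number could be made, since each condition had 1 library, and a fit of PMA with the line as a block over the 4 DMSO and PMA libraries was not run. Leaving out a library would have left its condition without a value. Levels under 1 FPKM, which Epgn and Ereg had with DMSO, rest on few fragments.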

Other observations

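A newly assembled locus of 0.697 kb without a symbol or strand, on chromosome 5 from 91051271 to 91051967 (GRCm38) between Epgn and Ereg, was chosen after its values had been seen. It had 0.516 FPKM with DMSO and 1.69 FPKM with PMA in 427 cells, 0.0808 and 1.39 FPKM in the libraries labelled SP2bKD, 0.398 FPKM in the GFP library and 0.363 FPKM in the GFP plus EICD library. Its FPKM was higher with PMA in both lines, as those of Epgn and Ereg on its sides were, and similar with GFP alone and with EICD. At under 1 FPKM without PMA on so short a locus, these values rest on few fragments. No counting interval was computed, so the size of these ratios is not resolved. Whether the locus is part of a transcript of a neighbouring ligand was not tested.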
